A study of Mus musculus with 2 samples.

Results

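The regions described here are stretches of open chromatin in mouse testis chosen for a high count of footprints in both libraries, not for footprints per length. They are the DNase-seq peaks of replicate 1 that hold 10 or more footprints of that library lying fully inside them and that overlap, by at least 1 bp, a peak of replicate 2 with 10 or more footprints of its own. There were 165 such peaks among the 101172 of replicate 1 (0.163%), and they overlapped 171 such peaks among the 117359 of replicate 2. Some of them overlap each other, and together they make up 159 separate places in the genome. The peaks were chosen by the footprint counts of both libraries, so the counts, and the spacing and coverage that follow from counts in a peak of given width, describe the choice and are no findings.

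DNase I cuts DNA that is not wrapped in a nucleosome, and sequencing of the cut ends gives peaks over open chromatin, mostly promoters and enhancers. Inside a peak, a protein bound to its site can shield a few bases from the enzyme, and such a stretch of fewer cuts is called a footprint. Footprints mark places where cutting is low and do not name the protein, and the preference of DNase I for some sequences also shapes them. Wide open regions in mammals are often promoters in CpG islands, which are rich in GC boxes, the site of the Sp1 family of transcription factors.

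DNase-seq was done on whole testis from B6CASTF1/J males, the first generation of a cross between C57BL/6 and a castaneus-derived strain, aged 14 days, when meiosis has begun and spermatids are not yet present. All animals shared this genotype, sex and age, no treatment is named, and the 2 libraries are replicates 1 and 2 of 1 group. Replicate 1 is labelled as 3 males, replicate 2 has no number of animals, and both carry 1 donor label, so the spread between them may be in part technical. With 1 group there was no comparison of conditions, and every value below is a description of these 2 libraries. Promoter peaks shared by both libraries were present at 35 of 36 meiotic genes, 24 of 24 piRNA pathway genes and 23 of 24 Sertoli cell genes, and at 68.5% of all protein-coding genes. The share was 25 of 29 for spermatogonia, 10 of 28 for spermatids, 13 of 18 for Leydig cells, 16 of 18 for myoid cells and stroma, 10 of 14 for endothelium and 2 of 15 for leukocytes, and 19 of 19 for housekeeping genes. The read depth is unknown, and the libraries held 269247 and 349555 footprints.

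A few peaks show what such dense footprinting looks like in sequence. All stretches are from the plus strand of the GRCm38 (mm10) reference of C57BL/6, lie outside annotated exons, and have the footprints of the named library in capitals. The peak at Ubtf, whose product drives transcription of ribosomal RNA genes, was the narrowest of all 165. By the mean distance between footprint starts, averaged over the 2 libraries, it also had the shortest spacing. It is shown whole (chr11:102316721-102316980), since 10 footprints of each library fit into these 260 bases.
Ubtf, replicate 1: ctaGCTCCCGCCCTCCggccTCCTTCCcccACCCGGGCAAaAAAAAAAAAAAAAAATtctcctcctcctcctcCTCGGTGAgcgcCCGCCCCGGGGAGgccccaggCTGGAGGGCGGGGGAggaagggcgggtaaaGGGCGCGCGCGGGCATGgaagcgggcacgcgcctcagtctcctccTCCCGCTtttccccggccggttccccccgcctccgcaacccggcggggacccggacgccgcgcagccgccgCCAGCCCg
Ubtf, replicate 2: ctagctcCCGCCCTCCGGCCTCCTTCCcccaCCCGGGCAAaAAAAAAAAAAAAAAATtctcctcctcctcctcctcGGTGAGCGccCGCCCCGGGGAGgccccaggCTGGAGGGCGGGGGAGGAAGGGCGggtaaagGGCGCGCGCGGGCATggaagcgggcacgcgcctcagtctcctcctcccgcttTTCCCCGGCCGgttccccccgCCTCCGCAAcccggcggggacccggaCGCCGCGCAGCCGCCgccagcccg
The same blocks recur in both libraries in the left part of the Ubtf peak, among them a run of A bases, and the right part differs: 113 bases were under footprints of replicate 1, 139 under those of replicate 2 and 88 under both. The stretch holds 4 GC boxes (GGGCGG or its complement CCGCCC), of which 3 and 4 lay in footprints of the 2 libraries.

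The peak at Sp1, the gene of the GC box factor itself, is shown because its footprints hold many CCAAT boxes, the site of the factor NF-Y. The stretch is chr15:102405791-102406090, and CCAAT reads as ATTGG on the other strand.
Sp1, replicate 1: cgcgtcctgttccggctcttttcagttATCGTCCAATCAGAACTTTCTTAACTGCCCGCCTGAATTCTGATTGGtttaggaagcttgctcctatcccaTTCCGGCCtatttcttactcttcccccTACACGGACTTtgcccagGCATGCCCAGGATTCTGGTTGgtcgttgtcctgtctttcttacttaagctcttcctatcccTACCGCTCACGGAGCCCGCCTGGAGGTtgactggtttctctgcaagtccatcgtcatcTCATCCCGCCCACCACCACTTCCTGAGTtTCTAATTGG
Sp1, replicate 2: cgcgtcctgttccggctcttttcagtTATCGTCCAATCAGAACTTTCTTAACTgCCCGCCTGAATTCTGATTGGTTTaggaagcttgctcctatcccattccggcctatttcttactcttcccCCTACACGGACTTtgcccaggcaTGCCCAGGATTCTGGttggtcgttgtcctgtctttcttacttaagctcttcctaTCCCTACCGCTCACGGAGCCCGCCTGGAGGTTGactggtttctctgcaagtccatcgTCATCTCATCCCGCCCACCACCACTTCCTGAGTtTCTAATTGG
In this stretch 151 and 153 bases were under footprints, 136 of them in both libraries, and all 3 CCAAT boxes were in footprints of both. Over the whole peak 6 and 7 of its 8 CCAAT boxes were in footprints.

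The peak near Otx1, a homeobox gene of brain development, is shown as a case where the libraries place their footprints differently (chr11:21993385-21993684). The peak lies between genes, 7775 bp from the nearest annotated start.
near Otx1, replicate 1: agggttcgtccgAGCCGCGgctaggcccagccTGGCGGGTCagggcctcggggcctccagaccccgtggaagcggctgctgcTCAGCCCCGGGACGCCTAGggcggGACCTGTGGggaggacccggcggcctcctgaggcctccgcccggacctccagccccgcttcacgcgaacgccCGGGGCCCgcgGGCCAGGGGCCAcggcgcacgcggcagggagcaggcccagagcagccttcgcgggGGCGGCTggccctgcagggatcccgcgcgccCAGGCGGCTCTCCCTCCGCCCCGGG
near Otx1, replicate 2: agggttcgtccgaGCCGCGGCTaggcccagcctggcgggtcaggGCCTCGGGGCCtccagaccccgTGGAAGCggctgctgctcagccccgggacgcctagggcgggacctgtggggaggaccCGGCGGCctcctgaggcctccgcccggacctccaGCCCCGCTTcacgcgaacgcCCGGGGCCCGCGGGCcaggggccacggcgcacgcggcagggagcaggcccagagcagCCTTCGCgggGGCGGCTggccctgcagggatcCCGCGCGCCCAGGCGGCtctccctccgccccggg
Here 96 and 89 bases were under footprints, and 32 were under both. This is less agreement than in the stretches of Ubtf and Sp1, although the peak held 15 footprints in each library.

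The last pair was chosen for repeated motifs. The peak near Peg3, an imprinted gene expressed from the paternal copy, lies in an intron of that gene (stretch chr7:6728611-6728910), and that at Add3, which encodes a protein of the membrane skeleton, had the highest value of the 165 (stretch chr19:53142361-53142660).
near Peg3, replicate 1: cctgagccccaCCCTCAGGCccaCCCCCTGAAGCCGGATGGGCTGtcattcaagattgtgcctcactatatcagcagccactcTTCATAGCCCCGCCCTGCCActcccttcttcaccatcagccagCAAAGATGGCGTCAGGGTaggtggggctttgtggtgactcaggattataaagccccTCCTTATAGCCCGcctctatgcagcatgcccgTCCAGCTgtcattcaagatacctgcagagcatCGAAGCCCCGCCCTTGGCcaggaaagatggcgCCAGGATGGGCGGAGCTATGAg
Add3, replicate 1: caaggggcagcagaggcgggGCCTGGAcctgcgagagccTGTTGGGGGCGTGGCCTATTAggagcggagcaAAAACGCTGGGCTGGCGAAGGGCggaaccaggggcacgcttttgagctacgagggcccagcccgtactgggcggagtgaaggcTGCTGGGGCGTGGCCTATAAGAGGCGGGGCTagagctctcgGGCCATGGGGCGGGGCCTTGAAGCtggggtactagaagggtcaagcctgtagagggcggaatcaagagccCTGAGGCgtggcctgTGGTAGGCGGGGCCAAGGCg
In the whole Peg3 peak, 2 of 3 matches to AAGATGGC, the core site of the factor YY1, and all 4 GC boxes lay in footprints of each library. The whole Add3 peak held 7 GC boxes, with 3 in footprints of replicate 1 and 4 in those of replicate 2. Alleles of the 2 parent strains were not analysed here, so the sequence of the castaneus-derived copy may differ from these letters.

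**Figure D1:**
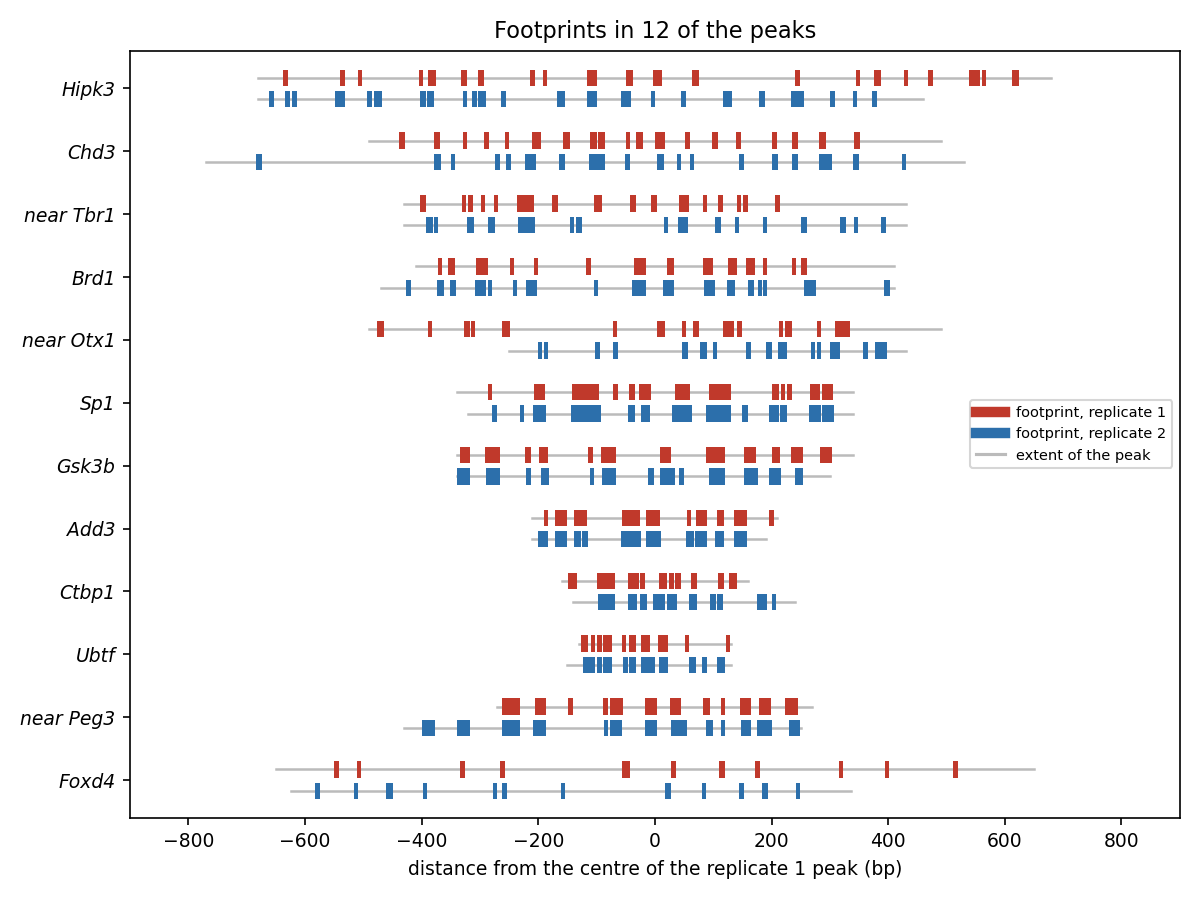
Footprints (blocks) inside 12 of the peaks, drawn to scale as distance in bp from the centre of the replicate 1 peak, with replicate 1 in red, replicate 2 in blue and the extent of each peak as a grey line. Blocks of Sp1, Gsk3b, Add3 and Ubtf mostly align between the libraries, whereas in the Foxd4 peak 2 footprints of each library touched one of the other.

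The peaks were among the widest of their libraries. Their median width was 640 bp in replicate 1 and 660 bp in replicate 2 (650 ± 14.1 bp, SD, n = 2), with a range of 260 to 1740 bp and 280 to 1640 bp, against a median of 192 and 191 bp over all peaks. The median width thus stood above 99.4% and 99.5% of all peaks. The authors' signal value of a peak, a scale set separately in each library, had a median of 2.10 and 1.78 (1.94 ± 0.23), against 0.543 and 0.506 over all peaks, and stood above 87.1% and 87.6% of them. It ran from 0.452 to 25.3 and from 0.423 to 26.0. Of these peaks 6 and 9 were among the 1000 strongest of their library, 3.64% and 5.26%, against 0.988% and 0.852% of all peaks. A wide peak leaves room for more footprints: none of the 165 was below 200 bp, where 52725 of the replicate 1 peaks lay. Of the 1862 and 2099 peaks at least 500 bp wide, 7.25% and 6.81% belonged to the group, and of the 43 and 72 at least 1000 bp wide, 20.9% and 31.9% did. In each width class that held peaks of the group, their median value was above that of the other peaks. Between 600 and 800 bp the median value of the group was 1.81 in replicate 1 and 1.57 in replicate 2, against 0.780 and 0.710 for the other peaks of that width. At 1000 bp and more it was 1.03 and 1.06, against 0.734 and 0.649. Single peaks of the group lay below the others' median, such as that at Shisa6 (1160 bp, 0.452 in replicate 1).

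**Figure D2:**
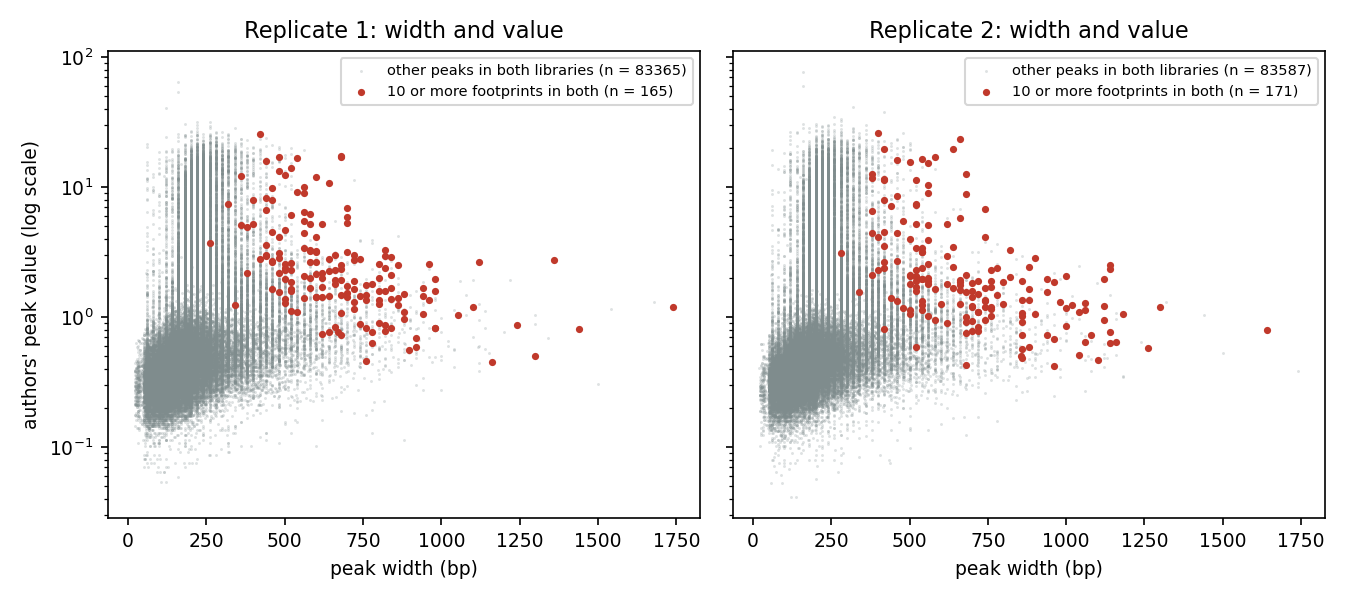
Width in bp (linear axis) and authors' value (log axis) of each peak found in both libraries, with the peaks holding 10 or more footprints in both in red. The red points have median widths of 640 and 660 bp, far to the right of most grey points, and their values fall with width.

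To set aside width and value, each peak was compared with peaks of its own library that were found in both libraries, were not in the group, and lay within 10% of its width and 20% of its value. There were 3378 and 4225 such comparison peaks, with a median of 32 and 35 for each peak. 8 peaks of replicate 1 and 4 of replicate 2 had none, among them Sp1 in both libraries and Hipk3 in replicate 1. The comparison peaks held a median of 7 and 8 footprints (7.5 ± 0.71, SD, n = 2), against 12 in both libraries for the group, which had a minimum of 10 by choice. Peaks of the same width and strength were thus often rich in footprints themselves.

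The distance between the starts of neighbouring footprints had a median of 45 and 45.5 bp per peak (45.3 ± 0.35 bp) against 58.3 and 57 bp in comparison peaks, and the longest gap without a footprint was 95 and 93 bp against 132 and 123 bp. Footprints covered 19.8% and 22.4% of a peak (21.1 ± 1.8%) against 10.9% and 11.9%. These differences come with the choice, since more footprints in the same width must lie closer, and are no findings. Pooled over all intervals, the median distance was 45 bp in both libraries against 49 and 50 bp, and the mode of the distances, at 10 to 20 bp, was shared. For pooled values each comparison peak counted once, although some peaks of the group had many more of them than others. Ubtf (260 and 280 bp) had 581 and 434, and Hipk3 (1360 and 1140 bp) 0 and 1. The pooled comparison peaks were thus on the whole narrower than the group, and pooled values are not matched in width. Distances of 150 bp or more, about the length of DNA on a nucleosome core, made up 2.87% and 2.36% of the intervals against 4.23% and 4.33%. In 15 of the 165 peaks the longest gap reached 150 bp in both libraries, and in 65 it stayed below 100 bp in both. Footprints themselves were of like size, with a median of 10 bp in both libraries against 9 and 9.25 bp. They were spread over the whole peak: in replicate 1, cut into 5 equal parts, the outer parts held 18.1% and 18.2% of the footprints and the middle part 20.1%. In replicate 2 these were 19.0%, 18.2% and 21.7%. Pooled comparison peaks were much alike, at 16.3%, 17.0% and 22.5% in replicate 1 and 16.6%, 16.4% and 22.5% in replicate 2.

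**Figure D3:**
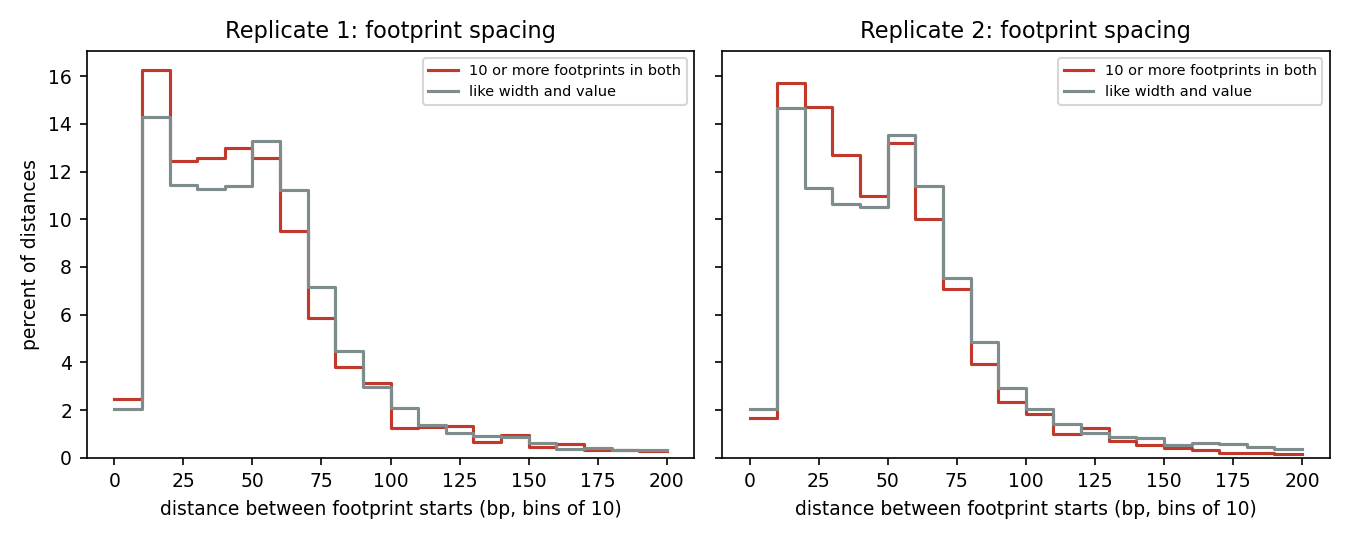
Share of intervals (percent, bins of 10 bp) by distance between starts of neighbouring footprints. Intervals were pooled over the peaks with 10 or more footprints in both libraries (red) and over their comparison peaks of like width and value (grey). Each comparison peak counted once, so the pooled grey peaks are on the whole narrower than the red. Intervals above 200 bp are not drawn. Both distributions peak at 10 to 20 bp, and the red one holds more of its intervals below 50 bp and fewer above 60 bp.

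Most of these peaks were promoters. A window of 1000 bp on each side of the annotated start of a protein-coding gene was overlapped by 149 of 165 peaks in replicate 1 (90.3%) and 155 of 171 in replicate 2 (90.6%), a mean of 90.5 ± 0.24% (SD, n = 2). Over all peaks the share was 31.0% and 29.1%, but in comparison peaks it was 89.4% and 87.1%. The promoter location thus goes with width and value and is hardly higher than in peaks alike in both. By midpoint, 143 of the replicate 1 peaks lay in promoter windows, 8 in exons, 8 in introns and 6 between genes. An annotated start lay inside 119 of the 165, and 74 held at least 2 starts. In 9 the starts were on both strands and in 10 they belonged to at least 2 genes, such as the pair Hmgb1 and Uspl1. Where all starts inside a peak were on 1 strand (110 peaks), footprints lay on both sides of the first start and were somewhat denser before it, at 1.94 and 1.93 per 100 bp upstream and 1.69 and 1.75 downstream. The peaks lay on 19 autosomes and on X. On X there were 7, or 0.218% of its 3204 replicate 1 peaks, against 0.163% over all chromosomes. There were 0 on Y, which had 86 replicate 1 peaks in all.

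The sequence was rich in GC and in CpG. GC content was 72.6% and 71.8% (72.2 ± 0.60%, SD, n = 2), against 71.0% and 68.9% in comparison peaks and 54.5% and 54.0% over all peaks. The ratio of observed to expected CpG was 0.893 and 0.886 (0.889 ± 0.0050), against 0.863 and 0.804 in comparison peaks and 0.337 and 0.316 over all. Peak by peak, the ratio exceeded the median of the comparison peaks in 91 of 157 and in 114 of 167. The share of repeat-masked bases was close to that of comparison peaks, at 4.58% and 4.57% against 4.91% and 4.58%. Only 8 peaks had a ratio below 0.5, and these included 2 neighbouring peaks at Il3ra, the peak near Peg3 (0.348) and that at B3gnt8 (0.242). Hist1h1t, the linker histone of spermatocytes, was also among the 8 (0.453). Its peak held 11 footprints in each library, with values of 1.98 and 3.18, the largest ratio of replicate 2 to replicate 1 among the 165. Il3ra, B3gnt8 and Hist1h1t were named after their values were seen.

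Sequence matches were counted on both strands, with a match counted as footprinted when at least 50% of it lay in a footprint. The GC box (GGGCGG) was found in 153 of 165 peaks in replicate 1 (92.7%) and 159 of 171 in replicate 2 (93.0%), against 90.6% and 87.3% of comparison peaks. Per kb, the peaks with a comparison held a median of 6.67 and 6.52 matches against 5.34 and 4.17, and the density was above the comparison in 100 of 157 and 117 of 167. GC content differs between the groups. With comparison peaks also alike in GC content, within 3 percentage points, the values were 6.39 against 5.79 and 6.76 against 5.14, and the density was above in 84 of 142 and 94 of 150. Of the GC boxes, 44.9% and 42.8% lay in footprints, against 34.7% and 36.1% in comparison peaks, where less of the sequence was under footprints. Bases under footprints made up 20.7% and 22.2% of the group's sequence and 14.6% and 14.8% of that of comparison peaks. Unlike the densities per kb, both of these comparison shares are pooled over peaks on the whole narrower than the group, without a match in width.

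**Figure D4:**
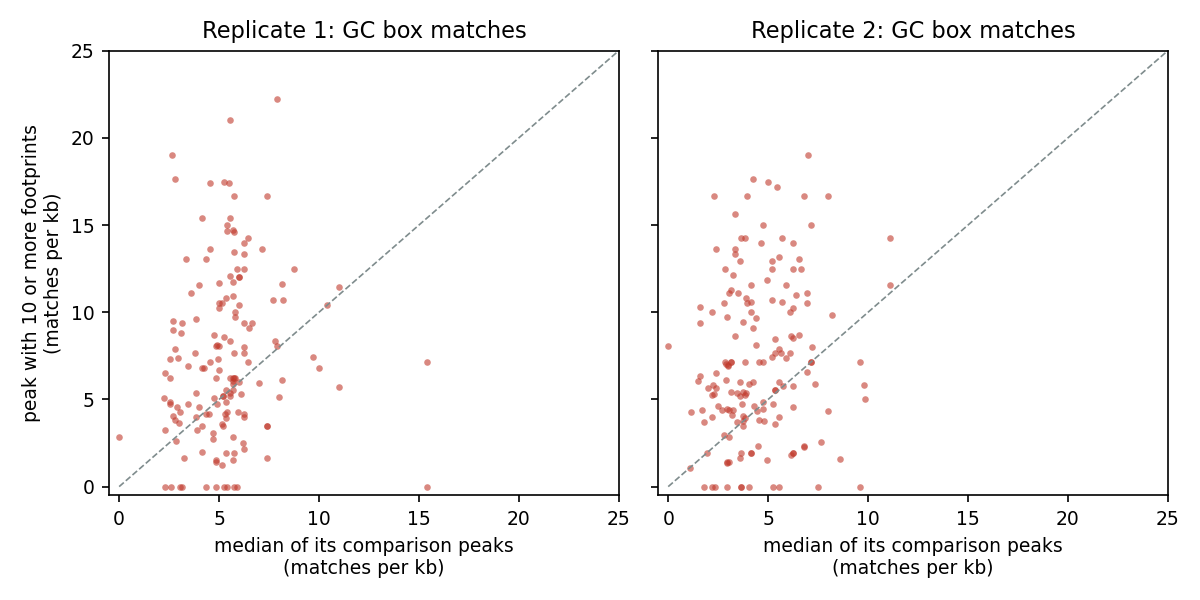
GC box matches per kb in each peak with 10 or more footprints in both libraries (vertical axis) against the median of its comparison peaks of like width and value (horizontal axis), one panel per library, with the line of equality dashed. 100 of 157 points in replicate 1 and 117 of 167 in replicate 2 lie above the line.

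Other motifs were found in fewer peaks. The CCAAT box was found in 33.3% and 34.5% of the peaks (comparison 30.2% and 36.2%), the ETS core CCGGAAG in 15.2% and 14.0% (16.3% and 16.5%), and the E-box CACGTG in 15.2% and 18.1% (15.2% and 18.3%). The site GTTGCCA of RFX factors, which act in spermatogenesis and in ciliated cells, was in 4 peaks of each library, 2.42% and 2.34%, against 7.84% and 7.03%. AP-1 matches (TGANTCA), the site of Fos and Jun, were in 8 and 11 peaks, 4.85% and 6.43%, against 6.30% and 6.76%. 0 of these matches lay in a footprint, and in comparison peaks 3.50% and 5.23% did. The CTCF consensus was matched in 1 peak of each library, near Trim17, and lay outside the footprints. No peak matched CTACAATTC, part of the ZNF143 site, which was also rare in comparison peaks (0.118% and 0.315%). The TATA box (TATAAA) was in 11 and 9 peaks, 6.67% and 5.26%, against 3.59% and 3.69%. Per kb, its matches numbered 0.107 against 0.0799 in replicate 1 but 0.0839 against 0.0991 in replicate 2. The ZBTB33 site CTCGCGAG was in 7 peaks of each library, 4.24% and 4.09%, against 1.73% and 2.38%. The other 12 motifs were in between 1.21% (NR5A) and 22.8% (REST) of the peaks, and in between 0.684% (SRF) and 21.9% (REST) of comparison peaks. They were the cyclic AMP response element TGACGTCA, GCGCATGCG for NRF1, AAGATGGC for YY1, TTTCCCGC and TTTGGCGC for E2F factors, the CArG box of SRF and the heat shock element TTCNAGAA. CAAGGTCA stood for the nuclear receptors of the NR5A family, and CAGTTA for the MYB factors of spermatocytes. The core AGATAA stood for GATA factors of somatic testis cells, CAGCACC for one side of the REST site and the short core CATTCC for TEAD factors.

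Single peaks stood out by repeats of 1 motif, and they were named for that after the counts were seen. At Wipi1, an autophagy gene, 9 and 11 of 12 GC boxes lay in footprints of the 2 libraries. Skil, a repressor of TGF-beta signalling, had 7 of 8 GC boxes in footprints in both. By contrast, of the 11 GC boxes of Shisa6 1 and 0 were in footprints, in the peak with the lowest mean value of all. CCAAT boxes were most frequent in the peaks of Sp1 and Zbtb20, with 8 each, and Gsk3b, with 7. At Zbtb20, a zinc finger gene, 5 and 4 of them lay in footprints, and at Gsk3b 3 in each library. Both matches to the cyclic AMP response element TGACGTCA in the Braf peak, and 2 of 3 matches to the NRF1 site GCGCATGCG in that of Pmm2 and Tmem186, lay in footprints of both libraries. A match is a match of letters, and the proteins bound were not measured.

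Of the 10 highest counts, 8 were found at promoters. Ranked by the smaller count of the 2 libraries, Hipk3, a kinase of the homeodomain-interacting family, came first with 21 and 23 footprints in a peak of 1360 and 1140 bp (chr2:104493341-104494700), at values of 2.74 and 2.33. Tmeff1, a transmembrane protein gene, had 19 and 23 (chr4:48584921-48585800), and Chd3, a chromatin remodeller of the NuRD complex, 19 and 20 (chr11:69368321-69369300). The shared promoter of Itsn2 and Gm3625 had 17 and 18, Cul1, the scaffold of a ubiquitin ligase, 17 and 15, and Brd1, a subunit of histone acetyltransferase complexes, 15 and 17. Clip1, which binds growing microtubule ends, had 15 and 17, and Hip1, an endocytic adaptor, 15 and 16. The peaks near Tbr1 (17 and 17) and near Otx1 (15 and 15) completed the first 10. These 10 had moderate values, from 0.732 at Hip1 in replicate 2 to 2.74 at Hipk3 in replicate 1.

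The 5 strongest peaks were 400 to 680 bp wide. Add3 had values of 25.3 and 26.0 (25.6 ± 0.44, SD, n = 2) with 10 and 11 footprints in 420 and 400 bp, and footprints covered 41.7% and 47.5% of it. Sp1 followed at 17.2 and 23.5 (20.4 ± 4.4) with 14 and 15 footprints, and Gsk3b, a kinase of Wnt signalling and glycogen metabolism, at 16.9 and 19.7 (18.3 ± 2.0) with 12 and 13. Abtb1 had 15.7 and 19.7 with 10 footprints in each library, and Dazap2 16.6 and 16.4 with 12 in each. Of the replicate 1 footprints, 12 of 12 at Gsk3b, 10 of 10 at Abtb1, 11 of 12 at Dazap2, 9 of 10 at Add3 and 11 of 14 at Sp1 overlapped one of replicate 2. At the lower end, Shisa6 had values of 0.452 and 0.427, the forkhead genes Foxd4 0.50 and 0.42 and Foxb2 0.462 and 0.510, the kinase gene Hunk 0.559 and 0.479 in the second of its 2 peaks, and the peak near Sp5, a gene of the Sp family, 0.591 and 0.468. In these 5, the replicate 1 footprints touched in replicate 2 were 2 of 10 (Shisa6), 2 of 11 (Foxd4), 4 of 10 (Foxb2), 3 of 10 (Hunk) and 1 of 12 (near Sp5). In replicate 2, where the touching footprints lie, they covered 35.9% to 47.5% of the 5 strongest peaks and 7.99% to 14.0% of the 5 weakest, so a touch is easier in the strongest.

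Averaged over the 2 libraries, the mean distance between footprint starts was shortest at Ubtf, with 27.7 and 25.4 bp. The divergent pair Abhd17b and 1110059E24Rik had 26.6 and 34.7 bp, the ubiquitin-conjugating enzyme gene Ube2e1 35.4 and 26.8 bp, Xk on the X chromosome 29.4 and 33.3 bp and the corepressor gene Ctbp1 30.7 and 33.1 bp. By the same average, the longest spacing was near Nrf1, with 98.0 and 112 bp, followed by Foxd4 with 106 and 75 bp. The peak near Sp5 had 68.5 and 94.1 bp, Hunk 78.0 and 80.3 bp, and Mid1, a ubiquitin ligase gene on X, 84.0 and 67.5 bp. The 5 widest peaks were those near Nrf1 (1440 and 1640 bp), Rreb1 (1740 and 860 bp), Hipk3, Chd3 (980 and 1300 bp) and Foxd4 (1300 and 961 bp). In Rreb1, a zinc finger gene, the widest peak had 24 footprints in replicate 1 against 11 in the narrower peak of replicate 2, the largest difference of all.

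Width, value and spacing are linked among the 165 by the rule, since a narrow peak can hold 10 footprints only at short spacing, and the values that follow describe the group alone. Split by width into 3 sets of 55, the narrowest set (270 to 560 bp, mean of both libraries) had a median value of 3.54 and a median spacing, averaged within each peak, of 40.8 bp. The middle set (570 to 750 bp) had 2.09 and 50.9 bp, and the widest (750 to 1540 bp) 1.23 and 60.4 bp. The share of a peak under footprints fell from 31.8% through 22.0% to 14.6% over the sets. With the footprints of both libraries counted in each peak, the median share that touched one of the other library was 77.3%, 65.2% and 51.7%. A touch is easier where more of the peak is under footprints. Over the other peaks of replicate 1 the median value did not fall with width in this way: it was 0.855 at 200 to 300 bp and 0.734 at 1000 bp and more, where the peaks of the group had 3.70 (1 peak) and 1.03 (9 peaks).

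Between the libraries, Spearman's rho over the 165 peaks was 0.97 for the value and 0.69 for the width, and none is given for the counts, which the rule limits in both libraries. The counts were equal in 33 of 165 peaks and differed by at most 2 in 122. They were higher in replicate 2 in 79 and in replicate 1 in 53. The value was higher in replicate 1 in 125 of 165 peaks, and the median ratio of replicate 2 to replicate 1 was 0.878, against 1.01 over all overlapping pairs of peaks. Peaks outside the group, taken by width class and unpaired, also had lower median values in replicate 2. These were 0.793 against 0.855 at 200 to 300 bp, and 0.617 against 0.804 at 800 to 1000 bp. A ratio over pairs of like width was not taken. Of the footprints in the peaks, 64.7% of those of replicate 1 and 60.4% of those of replicate 2 touched a footprint of the other library (62.6 ± 3.1%, SD, n = 2), and 2.56% and 2.72% had the same first and last base. In comparison peaks 63.6% and 49.0% were touched, and over all footprints 58.2% and 44.1%. These comparison shares, and those of covered bases that follow, are pooled over peaks on the whole narrower than the group. They are not matched in width. The other library's footprints covered 22.5% and 19.6% of the bases of the group and 17.0% and 11.7% of those of comparison peaks, so a touch is easier in the group. Peak by peak, all replicate 1 footprints were touched in 12 of 165, at least 50% in 136 and fewer than 25% in 7.

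**Figure D5:**
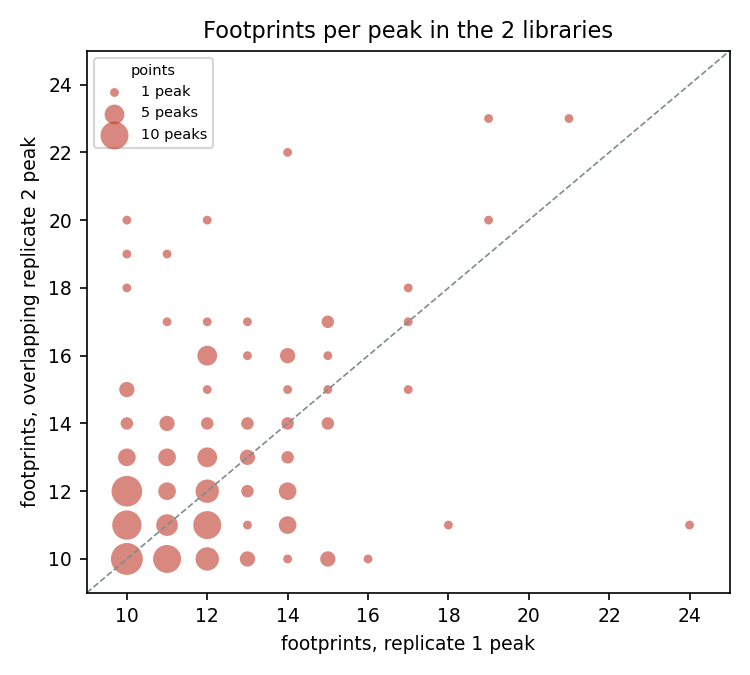
Footprints per replicate 1 peak (horizontal axis) and in the overlapping replicate 2 peak with the most footprints (vertical axis), with the area of a point giving the number of peaks and the line of equality dashed. Both axes start at the minimum of 10 set by the rule, and most points lie near that minimum.

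A count of 10 is a cut through a continuous range. Replicate 1 alone had 434 peaks with 10 or more footprints, and replicate 2 held 10 or more in 165 of these, 8 or 9 in 89, 5 to 7 in 134 and fewer in 45, with no peak at 1. Replicate 2 alone had 629, of which replicate 1 held 10 or more in 171, 8 or 9 in 125, 5 to 7 in 201, fewer in 120 and no peak in 12. Just inside the limit, 73 peaks had exactly 10 in the poorer library, with a median width of 600 bp, a median value of 1.97 and 90.4% in promoter windows. Just outside, 123 peaks had 9, with 480 bp, 2.13 and 81.3%.

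Outside promoter windows there were 16 peaks of replicate 1. The one near Tbr1, a T-box factor of cortical neurons, lay in an exon of that gene 5348 bp from the nearest start (chr2:61811621-61812480), with values of 1.40 and 1.36. The peak near Otx1 (chr11:21992861-21993840) had values of 1.96 and 2.10. Near Ebf3 the peak lay between genes (14 and 13 footprints), near Foxc1 in an exon (12 and 12) and near Sp5 in an exon (12 and 10). The peak named for Nrf1, which lies 56886 bp from a start of that gene, was 108 bp from a start of the long non-coding RNA gene Rncr4 and 3264 bp from that of Mir183, a microRNA gene (chr6:30173001-30174440, values 0.801 and 0.793). The peak nearest Slc22a12 lay in an exon of Nrxn2, a neurexin gene, and held a start of the antisense gene Gm14964.

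Among these 16, 3 peaks named by the rule were strong. Near Clec11a, a secreted growth factor gene, a peak in an intron had values of 13.2 and 16.1 with 12 and 11 footprints (chr7:44304861-44305340). Near Peg3 the values were 9.20 and 12.5 with 12 and 13 footprints (chr7:6728441-6728980), and 11 of 12 and 13 of 13 touched a footprint of the other library. Near Trim17 they were 6.93 and 8.84 with 12 and 13 (chr11:58961621-58962320), in an intron, and the peak itself held a start of the pseudogene Gm12260. The peak near Tchh, a gene of the hair follicle, lay in an exon with values of 0.833 and 0.804 and 15 and 10 footprints. The other 6 were nearest to Map3k14, Zfp987, Mib2, Fgfr3, Shroom3 and, as above, Sp5. The peak near Zfp987 also held a start of a pseudogene, Gm13034.

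By gene, 159 of the 21911 protein-coding genes (0.726%) had one of the 165 peaks in a promoter window. Lists of genes for testis cell types contributed none: the counts were 0 of 36 for meiotic prophase, 0 of 29 for spermatogonia, 0 of 24 for the piRNA pathway, 0 of 28 for spermatids, 0 of 24 for Sertoli cells, 0 of 18 for Leydig cells, 0 of 18 for myoid cells and stroma, 0 of 14 for endothelium and 0 of 15 for leukocytes. The lists of 48 immediate early genes, 26 feedback inhibitors of signalling and 35 cell cycle genes also gave 0. With a share of 0.726% over all genes, lists of this size hold few or none, so these counts say nothing particular about the lists. Listed genes with such a peak were 1 of 19 housekeeping genes, 2 of 39 splicing genes and 1 of 52 chromatin regulators.

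Dnmt3a, the de novo DNA methyltransferase of the germ line, had 13 footprints in each library at values of 2.28 and 1.89, in a peak within 601 bp of the nearest start (chr12:3807761-3808420). The splicing regulator gene Hnrnpf had 10 and 12 footprints at values of 2.01 and 2.31.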

How the data were processed

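For each library the authors deposited a longer and a shorter peak list and a footprint list, on mm10 per the labels, each made from that library alone. Peak strength is a signal value deposited by the authors in the peak files, scaled separately per library. The authors wrote the same p-value, 0.01, into each row of their footprint lists, so footprints were used by position alone. Not given in the sources used here are the aligner, both callers and any correction for the sequence preference of DNase I. The depth in reads is unknown.

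The longer lists were used. Overlaps (1 bp or more) and footprints fully inside a peak were counted in Python 3.11.15 with pandas 2.3.3, numpy 2.4.6, pysam 0.24.0 and bedtools 2.31.1, tested on simulated data. A replicate 1 peak was paired with the overlapping qualifying replicate 2 peak with the most footprints. Gene models came from GENCODE M21 (21911 protein-coding genes), sequences came from the RefSeq GRCm38.p6 genome, the same build as mm10, and no peak lay beyond a chromosome end. Of each comparison set the median was taken per peak, then the median over peaks (shares: the mean). Pooled over comparison peaks, each counted once, were motif shares in footprints, TATA box matches per kb and recurrence. The position of footprints, bases under footprints as a share of all sequence, and the pooled distances were treated likewise. The pooled comparison peaks are on the whole narrower than the group, so these values are not matched in width.

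Peaks and gene lists were chosen with earlier results of these data known. Of the list symbols, Six6os1, Top6bl, Hop2, Brme1, Meiosin, Plzf, H1f7, Malat1 and Neat1 were not matched to a protein-coding gene. A peak took the name of each gene whose promoter window it overlapped, otherwise of the nearest start. Named were the 10 with the highest smaller count, the 5 widest, the 5 strongest and 5 weakest, the 5 with the shortest and 5 with the longest spacing, the 10 highest counts outside promoter windows, and those of listed genes, some of which are not reported here. Alternatives were other minimum counts, overlaps, peak lists, promoter windows, spacing measures and comparison limits, and each library alone. Values are given per library and as mean ± SD of the 2, with no test, since there is 1 group.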

Additional observations from a re-analysis of the deposited data

How the results depend on the processing

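No paired analysis was possible because there is 1 group. The minimum count set the number of peaks: 586 with 8 or more footprints, 56 with 12 or more (all 56 among the 165), and 434 to 629 when a single library chose them. With 8 or more, 85.2% overlapped a promoter window, the median width was 490 bp, the spacing 42 bp, the share under footprints 24.0% and the CpG ratio 0.854. With 12 or more, the first 3 of these were 85.7%, 775 bp and 46.5 bp. Requiring 50% of each peak to overlap kept 155, with 89.8% in promoter windows and a CpG ratio of 0.881. Counting footprints by midpoint gave 175 peaks, which included all 165, with a spacing of 44.5 bp and a CpG ratio of 0.884. The shorter lists gave 92.0%, 630 bp, 43.9 bp and 0.897. The promoter share was 86.0% with windows of 500 bp, 93.2% with 2500 bp and 73.5% with gene 5' ends alone. Measured from the end of a footprint to the next start, the spacing was 31.5 bp. With 1 library left out, the promoter share ran from 81.1% to 87.1%, the width from 560 to 580 bp, the spacing from 41 to 42 bp, the value from 1.43 to 1.90, the share of footprints found again from 50.5% to 59.8% and the CpG ratio from 0.827 to 0.867. Comparison peaks held 6.5 footprints within 20% of width and 40% of value, and 5.5 within 10% of width alone. The cause of these shifts was not tested. Without read depth, a region with fewer footprints in 1 library may be one with fewer reads there, which was not tested.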
